A study of Mus musculus with 27 samples.

Results

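The genes described here are 10 that serve lipid absorption and lipoprotein assembly in the gut, measured in the colonic epithelium of mice given the dioxin TCDD, an environmental contaminant that activates the aryl hydrocarbon receptor. They were chosen by name (Apoa1, Apoa4, Apob, Apoc3, Mttp, Fabp1, Fabp2, Fabp6, Cd36 and Dgat1) and matched to the Ensembl identifiers of 10 of the 46078 gene rows in the count tables. RNA was sequenced from epithelial scrapings of 27 male C57BL/6 mice, all with no genetic change named in the labels. Mice were 28 days old at the start and 56 days old at the end. They were gavaged every 4 days for 28 days, 7 times in all, with sesame oil (vehicle) or with TCDD at 30, 10, 3, 1, 0.3, 0.1, 0.03 or 0.01 μg/kg, and each of the 9 groups held 3 mice. Each library came from 1 mouse, and the comparisons ask at which doses the genes differed from vehicle.

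Dietary fat is absorbed mainly by enterocytes of the small intestine. Fatty acids enter these cells, bind to cytosolic fatty acid binding proteins, and are rebuilt into triacylglycerol in the endoplasmic reticulum, where they are loaded onto apolipoprotein B and leave as chylomicrons. The colon takes little part in this task, and several of these genes are known as markers of the small intestine. CD36 is a fatty acid translocase of the cell surface, FABP1 and FABP2 carry fatty acids in the cytosol, FABP6 binds bile acids and is best known from the ileum, DGAT1 makes the last step of triacylglycerol synthesis, and MTTP transfers lipid onto APOB. APOA1, APOA4 and APOC3 are smaller apolipoproteins of chylomicrons and high density lipoprotein.

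At 30 μg/kg 6 of the 10 genes were higher than in vehicle (Fabp2, Dgat1, Apoa1, Mttp, Fabp1 and Apoc3) and none was lower, where 2.95% of all genes tested were higher. Without mouse 2 at 30 μg/kg 4 of these calls (Apoa1, Mttp, Fabp1 and Apoc3) were lost and Apob was called lower. Each of these 4 also lost its call without at least 1 of the vehicle mice, and with the index set of the library (a barcode series, described with the depths) as a term 1 call, that of Fabp2, was kept. With a clock score (also described there) as a covariate none of the 6 calls was kept, and limma voom kept those of Fabp2 and Dgat1. Fabp1 and Apoc3 passed the filter on low counts through treated mice alone. The 6 genes differed in kind. Fabp2 and Dgat1 were well expressed and differed little between mice of a group. Apoa1, Mttp, Fabp1 and Apoc3 were low, and with Apoa4 they were high together in some mice and low together in others, at several doses. Apob, the most abundant apolipoprotein mRNA, Fabp6, Cd36 and Apoa4 did not pass the test at any dose.

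Levels are given as CPM, each gene's count scaled to a total of 1e6 gene counts. Gene counts per library ranged from 9305441 to 14371035 (median 11651026). All 6 colonocyte markers were present, with a summed level of 7273 to 7664 CPM in vehicle mice and 7040 to 8248 CPM at 30 μg/kg. Cyp1a1, the classical target of the receptor, averaged 0.0654 CPM in vehicle and 2197 CPM at 30 μg/kg. The barcodes in the library names fell into 2 index sets. The first held every mouse that got vehicle or at most 0.3 μg/kg, with 1 of the mice at 1 μg/kg. The second held the other two of that dose and every mouse at 3, 10 and 30 μg/kg, so the index set and the higher doses cannot be told apart except through the 1 μg/kg group. A clock score (mean log2 CPM of 7 genes such as Per2 and Dbp minus that of 5 genes such as Arntl) also moved with dose: it lay between -2.53 and -0.03 at 0.3 μg/kg or less, except for 2.00 in mouse 3 of the 0.01 μg/kg group, and between 1.55 and 2.64 at 1 μg/kg or more. In bulk scrapings fewer cells of a type and less RNA per cell cannot be told apart.

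The sequences before the RefSeq start sites are shown for Fabp2, whose level moved with dose, and for 4 of the genes that varied together between mice. They are the 250 bases before the RefSeq start on build GRCm38.p6, read 5′ to 3′ along the gene's own strand. RefSeq promoters were matched for 8 of the 10 genes. Capitals mark matches on either strand to 4 motifs, which are GCGTG (the core of the dioxin response element bound by the receptor), CAAAGTNCA (a form of the site of HNF4 nuclear receptors), AGATAA (bound by Gata4 and its relatives) and TATAAA (a core promoter element).
Fabp2: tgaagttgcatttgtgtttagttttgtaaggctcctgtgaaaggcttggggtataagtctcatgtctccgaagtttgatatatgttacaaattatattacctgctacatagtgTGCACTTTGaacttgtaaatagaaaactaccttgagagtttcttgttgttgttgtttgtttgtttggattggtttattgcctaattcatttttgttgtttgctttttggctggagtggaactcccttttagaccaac
Apoa1: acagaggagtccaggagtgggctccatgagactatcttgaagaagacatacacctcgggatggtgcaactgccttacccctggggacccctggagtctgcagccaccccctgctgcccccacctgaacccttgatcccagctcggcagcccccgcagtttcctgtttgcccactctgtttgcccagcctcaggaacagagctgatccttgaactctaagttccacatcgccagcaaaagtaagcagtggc
Apoa4: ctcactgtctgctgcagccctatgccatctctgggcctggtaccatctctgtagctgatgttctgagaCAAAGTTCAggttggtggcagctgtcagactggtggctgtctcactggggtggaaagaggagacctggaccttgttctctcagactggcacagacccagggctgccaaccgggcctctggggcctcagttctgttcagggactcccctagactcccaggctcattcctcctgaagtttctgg
Mttp: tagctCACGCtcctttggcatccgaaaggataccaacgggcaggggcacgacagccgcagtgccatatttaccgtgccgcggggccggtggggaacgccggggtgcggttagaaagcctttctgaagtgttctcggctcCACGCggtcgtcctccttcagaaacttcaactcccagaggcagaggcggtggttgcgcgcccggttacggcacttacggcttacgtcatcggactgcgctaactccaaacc
Fabp1: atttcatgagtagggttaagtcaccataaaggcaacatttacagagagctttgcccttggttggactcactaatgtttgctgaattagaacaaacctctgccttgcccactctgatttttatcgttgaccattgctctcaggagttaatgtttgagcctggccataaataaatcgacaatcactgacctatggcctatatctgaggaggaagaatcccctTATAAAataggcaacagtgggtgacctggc
The Fabp2 sequence lies at chr3:122894822-122895071, plus strand, that of Apoa1 at chr9:46228380-46228629, plus strand, and that of Apoa4 at chr9:46240594-46240843, plus strand. The Mttp sequence lies at chr3:138143419-138143668, minus strand, and that of Fabp1 at chr6:71199629-71199878, plus strand. By the gene models used here the Mttp window lies inside its gene and the windows of Apoa1, Apoa4 and Fabp1 run into theirs, while that of Fabp2 ends just before its gene. The HNF4 form was found in Fabp2, with its nearest base 129 bases before the start, and in Apoa4 (174 bases), and in 1.19% of 32851 RefSeq promoters of this length. GCGTG was found 2 times in Mttp, 241 and 107 bases before the start, and in no other of the 8 promoters, against 28.2% of all promoters. TATAAA was found in Fabp1 (25 bases before the start), Fabp6 (24 bases) and Apob (55 bases), against 12.4% of all promoters. AGATAA, found in 9.99% of promoters, had no match in the 8. A match describes letters in this window and not a bound site.

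Per kilobase of exon the 10 mRNAs spanned a wide range of levels. In vehicle mice the order by mean CPM per kb was Fabp2 (143 ± 3.60, SD, n = 3), Apob (21.4 ± 2.45), Dgat1 (9.10 ± 0.555), Fabp6 (5.09 ± 2.49), Apoa1 (3.39 ± 2.09), Apoa4 (2.15 ± 0.429), Cd36 (1.31 ± 0.576), Mttp (0.849 ± 0.119), Fabp1 (0.368 ± 0.197) and Apoc3 (0.0967 ± 0.0967). The 3 vehicle mice of Fabp6 and Apoa1 overlapped, as did those of Apoa1 and Apoa4, of Cd36 and Mttp, and of Fabp1 and Apoc3, so these neighbours did not differ beyond their spread. The other neighbours in the order did not overlap.

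**Figure D1:**
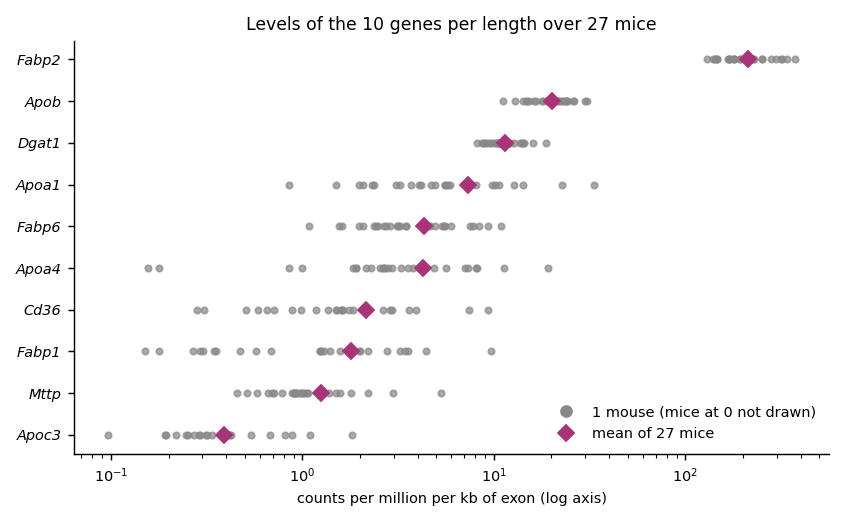
Level of each gene per kb of exon in CPM (horizontal, log axis), with 1 grey point per mouse and a diamond at the mean of all 27 mice; mice with a count of 0 are not drawn. Fabp2 lies above all other genes in every mouse, and Apoc3 has the lowest mean at 0.388 CPM per kb.

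Among the cytosolic binding proteins, Fabp2 (intestinal FABP, on chromosome 3 at 122895072-122899506 of GRCm38) was higher at the top 3 doses. Its group means were 161 to 167 CPM from 0.01 to 0.3 μg/kg. Its level in the 3 vehicle mice was 134, 141 and 138 CPM. It was 242, 217 and 308 CPM at 3 μg/kg, 220, 330 and 269 CPM at 10 μg/kg, and 289, 362 and 304 CPM at 30 μg/kg. Every mouse at 3 μg/kg or more was above the highest of the 15 mice at 0.3 μg/kg or less (195 CPM). The log2 fold change against vehicle was 0.89 (SE 0.16, adjusted p = 0.0047, edgeR quasi-likelihood test) at 3 μg/kg, 0.98 (SE 0.16, adjusted p = 0.00139) at 10 μg/kg and 1.21 (SE 0.16, adjusted p = 6.07e-05) at 30 μg/kg, where the fold was 2.31. The exact two-sided permutation test of 3 mice against 3 gave p = 0.1 at each of these doses, the smallest it can give. At 1 μg/kg the mice stood at 208, 186 and 244 CPM, a log2 fold change of 0.62 (SE 0.16) that did not pass the test (edgeR adjusted p = 0.11). The mouse with 208 CPM was the 1 mouse of this group in the first index set, and its clock score was 2.54. Mouse 3 of the 0.01 μg/kg group, which had the clock score of 2.00, had the 195 CPM that was highest among the 15 mice of the low doses. The next highest, mouse 3 at 0.03 μg/kg with 185 CPM, had a clock score of -1.70. Clock score, index set and dose moved together, and the part of each in Fabp2 was not tested. With the index set as a term Fabp2 was higher at 30 μg/kg by 1.16 (edgeR adjusted p = 0.0267), while its calls at 3 and 10 μg/kg were lost. With the clock score as a covariate it was higher at 30 μg/kg by 0.72 (adjusted p = 0.146), and none of its calls was kept.

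Fabp1 (liver FABP, chromosome 6 at 71199827-71205023) was scarce, with 1 to 64 reads per mouse. Vehicle mice had 0.0983, 0.316 and 0.196 CPM, and mice at 30 μg/kg 0.718, 5.35 and 0.689 CPM. The groups did not overlap, but 64 of the 82 reads at 30 μg/kg came from mouse 2. Against 6 reads in vehicle this gave a depth-scaled ratio of 11 (95% interval 4.83 to 30.8, which covers counting error only), and the log2 fold change was 3.4 (SE 0.86, edgeR adjusted p = 0.0137). Fabp1 passed the low-count filter through 12 treated mice and 0 vehicle mice, and with only the groups compared it was not tested, so its call is a description and no support for a difference. Without mouse 2 of this group it was 1.75 and did not pass the test (adjusted p = 0.195). Fabp1 was also high at 0.1 μg/kg in mice 1 and 2 (1.53 and 1.98 CPM) but not in mouse 3 (0.19 CPM). Every mouse at 1, 3 and 10 μg/kg (0.771 to 2.46 CPM) lay above all vehicle mice. These mice also lay above mice 1 and 3 at 30 μg/kg. At these 3 doses it did not pass the test (edgeR adjusted p = 0.27, 0.26 and 0.0519).

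Fabp6 (the ileal bile acid binding protein, chromosome 11 at 43596049-43601540) had 6 to 65 reads per mouse. It stood at 1.38, 2.21 and 3.72 CPM in vehicle and at 2.66, 1.5 and 0.517 CPM at 30 μg/kg, and these groups overlapped, with a log2 fold change of -0.61 (SE 0.60, edgeR adjusted p = 0.549). Of 6 bile acid genes listed beside it, 4 could be tested (Slc10a2, Slc51a, Slc51b and Nr1h4) and 0 were called at 30 μg/kg, where 6.16% of all genes were called.

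Dgat1 (chromosome 15 at 76502015-76511953) was likewise higher at the top doses. Vehicle mice had 27.4, 29.7 and 26.4 CPM, mice at 10 μg/kg 48.7, 36.4 and 43.6 CPM, and mice at 30 μg/kg 43.1, 57.3 and 41.8 CPM. Both dose groups lay above all vehicle mice, with log2 fold changes of 0.62 at 10 μg/kg (SE 0.14, edgeR adjusted p = 0.0164) and 0.77 at 30 μg/kg (SE 0.14, adjusted p = 0.0014), a fold of 1.70 at the higher dose. At 1 and 3 μg/kg it was 0.46 and 0.35 and did not pass the test (adjusted p = 0.237 and 0.224). With the index set as a term the change at 30 μg/kg was 0.82 and with the clock score 0.87, and neither passed (adjusted p = 0.0674 and 0.0749). The call at 10 μg/kg was lost with each of these too (adjusted p = 0.195 and 0.217), and without mouse 1 or 3 of vehicle or of that dose (adjusted p from 0.0526 to 0.0738).

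**Figure D2:**
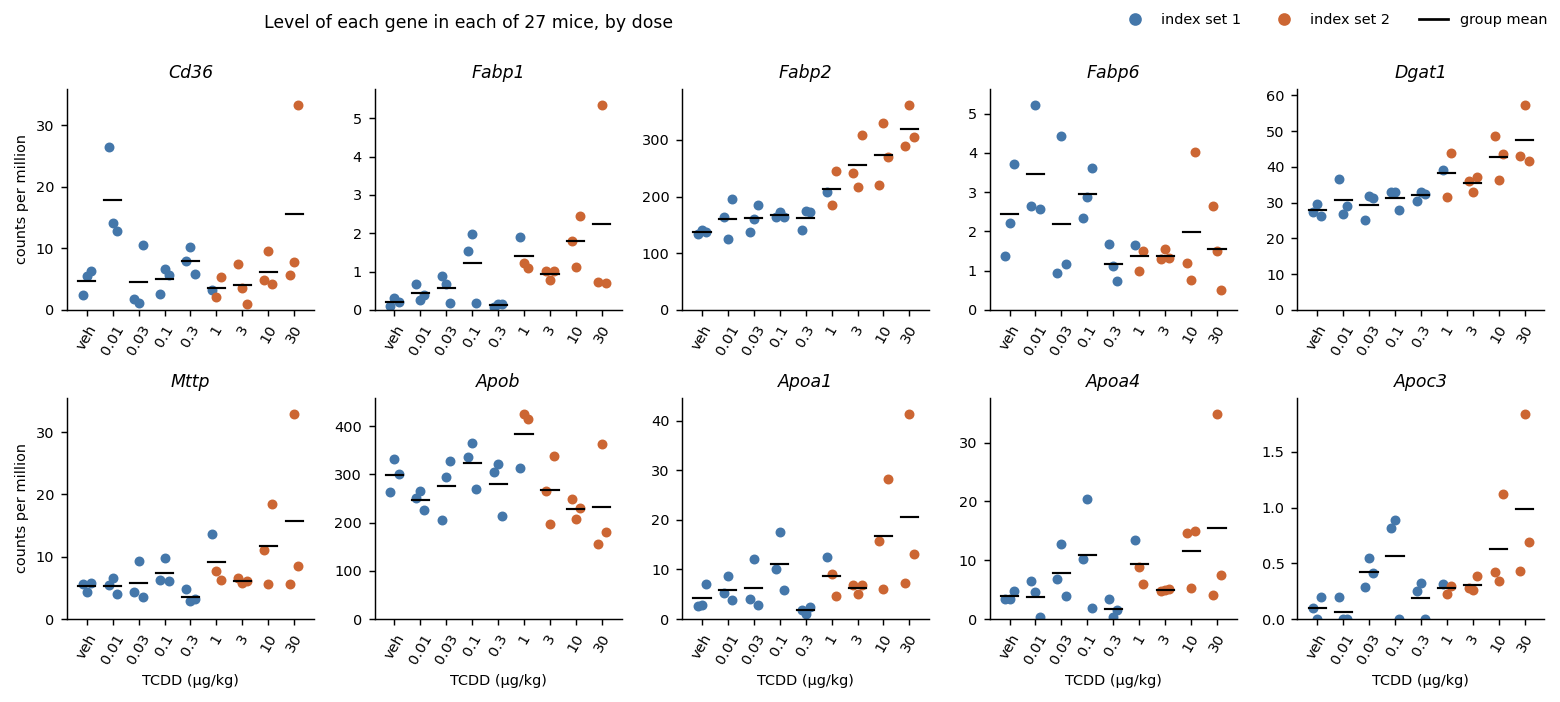
CPM of each of the 10 genes (vertical, linear axes from 0) by dose in μg/kg (horizontal, veh is vehicle), with 1 point per mouse coloured by index set and a bar at the mean of 3 mice. Fabp2 and Dgat1 are highest at the top doses with little spread, while Apoa1, Apoa4, Apoc3, Mttp and Fabp1 each have their highest value in 1 mouse at 30 μg/kg.

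The assembly gene Mttp (microsomal triglyceride transfer protein, chromosome 3 at 138089854-138144968) had 5.60, 4.42 and 5.78 CPM in vehicle and 5.60, 32.9 and 8.52 CPM at 30 μg/kg. The first mouse at 30 μg/kg was within the vehicle range and the second was above every other mouse. The log2 fold change of 1.56 (SE 0.51) was just past the threshold (edgeR adjusted p = 0.0488), and it was 0.41 without mouse 2 (adjusted p = 0.622). All mice at 0.1 and 1 μg/kg (6.08 to 9.79 and 6.25 to 13.6 CPM) lay above vehicle. Those at 0.3 μg/kg had 2.82 to 4.85 CPM. Mttp was called at none of these doses (edgeR adjusted p = 0.912, 0.639 and 0.971). Mttp overlaps Trmt10a and Gm43691, which had at most 87 reads in any mouse, and the strand setting of the counting is not given in the sources used here.

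Apob (chromosome 12 at 7977648-8016835), whose product is the structural protein of chylomicrons, was in vehicle mice the most abundant of the set in CPM, with 263, 331 and 301 CPM in vehicle. At 30 μg/kg it stood at 156, 362 and 180 CPM, so 2 mice lay below and 1 above all vehicle mice. This was a log2 fold change of -0.36 (SE 0.24, edgeR adjusted p = 0.36). Without mouse 2 at 30 μg/kg it was -0.83 and passed the test as lower (adjusted p = 0.022). At 10 μg/kg all 3 mice (248, 207 and 231 CPM) lay below the vehicle mice, with a log2 fold change of -0.39 that did not pass (adjusted p = 0.427).

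Apoa1, Apoc3 and Apoa4 lie side by side on chromosome 9 (46228580-46230466, 46232933-46235636 and 46240696-46243459, with Apoc3 on the minus strand). Apoa1, the main protein of high density lipoprotein, stood at 2.55, 2.84 and 7.16 CPM in vehicle, 15.7, 6.07 and 28.2 CPM at 10 μg/kg and 7.25, 41.3 and 13.2 CPM at 30 μg/kg. The lowest mouse at 30 μg/kg was barely above the highest vehicle mouse. The log2 fold change was 1.99 at 10 μg/kg (SE 0.65, edgeR adjusted p = 0.0956) and 2.29 at 30 μg/kg (SE 0.65, adjusted p = 0.0262). Without mouse 2 at 30 μg/kg it was 1.27 and did not pass (adjusted p = 0.241).

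Apoa4, which is secreted on chylomicrons, had 3.44, 3.47 and 4.80 CPM in vehicle and 4.17, 34.8 and 7.49 CPM at 30 μg/kg. The groups overlapped, and the log2 fold change of 1.98 (SE 0.80) did not pass the test (edgeR adjusted p = 0.109). It was 0.56 without mouse 2 (adjusted p = 0.735), and it was called only without the low-count filter (adjusted p = 0.0438) and with the clock score as a covariate (adjusted p = 0.0495). Its spread between mice of a group was the widest of the 10 genes, with a within-group SD of 1.23 on the log2 scale against a median of 0.21 over all 16496 genes tested. At 0.01 μg/kg it ranged from 0.284 to 6.44 CPM. All mice at 1 and 10 μg/kg (5.95 to 13.4 and 5.30 to 14.9 CPM) lay above vehicle. All at 0.3 μg/kg (0.322 to 3.35 CPM) lay below it. Apoa4 was called at none of these doses (edgeR adjusted p = 0.64, 0.311 and 0.971). Apoc3, an inhibitor of lipoprotein lipase, was close to the limit of detection. It had a count of 0 in 5 of 27 mice and 10 reads or more in 2, and it passed the low-count filter only through 3 treated mice in which it was high, so its call and its place in the counts of genes are no support for a difference. Without Apoc3 and Fabp1, 4 of the other 8 genes were called at 30 μg/kg, all higher, where 2.95% of all genes were higher. Of these, Apoa1 and Mttp lost their call without mouse 2 of that dose. For Apoc3 the 3 vehicle mice held 3 reads and the 3 mice at 30 μg/kg held 36, of which 22 came from mouse 2. This was a depth-scaled ratio of 9.64 (95% interval 3.05 to 48.9, which covers counting error only). The log2 fold change was 3.15 (SE 0.97, edgeR adjusted p = 0.0381). It was 2.34 without mouse 2 at 30 μg/kg and did not pass (adjusted p = 0.197).

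**Figure D3:**
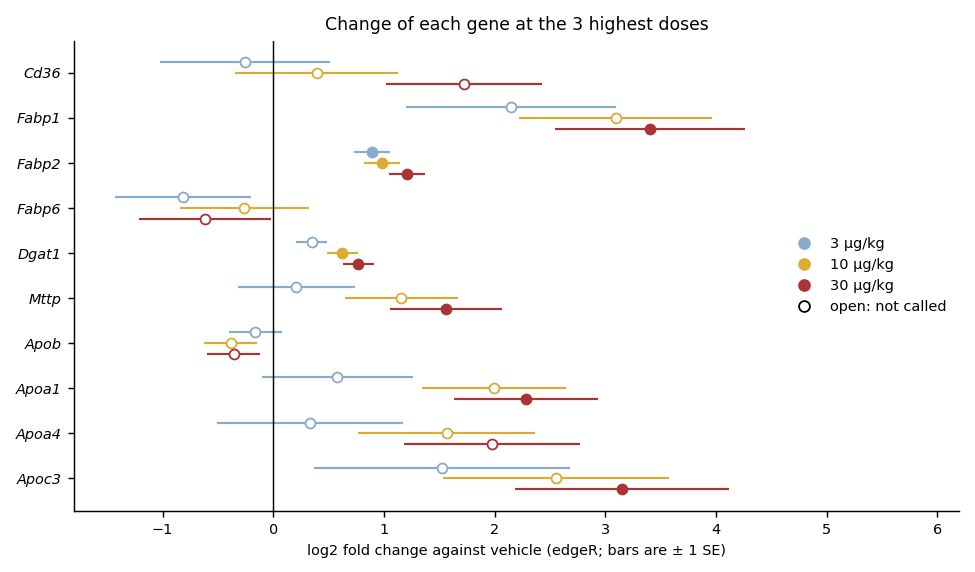
Log2 fold change of each gene against vehicle (horizontal) at 3, 10 and 30 μg/kg, from the edgeR fit, with bars of 1 SE; filled points passed the test and open points did not. Fabp2 and Dgat1 have narrow bars, from 0.35 to 1.21, and Apoc3 and Fabp1 reach 3.15 and 3.4 at 30 μg/kg with wide bars.

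The surface receptor Cd36 (chromosome 5 at 17781690-17888801) followed neither pattern. It stood at 2.36, 5.47 and 6.27 CPM in vehicle, at 26.6, 14.1 and 12.9 CPM at 0.01 μg/kg and at 5.75, 7.85 and 33.3 CPM at 30 μg/kg. All 3 mice at the lowest dose and 1 mouse at the highest were well above vehicle. Its log2 fold change was 1.92 (SE 0.71, edgeR adjusted p = 0.78) at 0.01 μg/kg and 1.72 (SE 0.71, adjusted p = 0.116) at 30 μg/kg, and neither passed. At 30 μg/kg it was 0.53 without mouse 3 (adjusted p = 0.709), and it was called without the low-count filter (adjusted p = 0.0498). The 3 genes whose log2 CPM was most like that of Cd36 over the 27 mice were Car3 (r = 0.97), Fabp4 (r = 0.96) and Adipoq (r = 0.95), all known from fat cells. The summed level of 7 adipocyte markers was 7.17 to 28.7 CPM in vehicle, 63.6 to 139 CPM at 0.01 μg/kg and 25.9 to 208 CPM at 30 μg/kg, and 208 CPM belonged to the mouse with 33.3 CPM of Cd36. Across the 27 mice the logged sum and Cd36 had Pearson's r of 0.94 and Spearman's rho of 0.96 (permutation p = 1e-05 for each, the smallest that 100000 permutations can give, with 57 relations computed). Within the index sets r was 0.96 and 0.93, and without the 2 mice farthest from the median sum it was 0.91. This relation was examined after the values were seen. Summed smooth muscle markers were also higher at 30 μg/kg (88.6 to 586 CPM) than in vehicle (43.6 to 81.6 CPM), with 586 CPM in that same mouse. This sum lay above vehicle at 0.3, 3 and 10 μg/kg too (83.1 to 287, 90.5 to 233 and 146 to 240 CPM). At the other doses it overlapped with vehicle. Summed endothelial markers ran from 16.5 to 19.8 CPM in vehicle and from 18.8 to 38.7 CPM at 30 μg/kg, again highest in that mouse. Of the markers tested at 30 μg/kg, 3 of 7 adipocyte and 2 of 5 endothelial markers were called, all higher, and 0 of 5 smooth muscle markers, where 6.16% of all genes were called and 2.95% were higher. Without mouse 3 at 30 μg/kg 1 of these 5 calls, that of Cdh5, was kept. A rising slope over dose was called for 4 of the 5 smooth muscle markers, where 23.4% of all genes had a slope in either direction. The part of fat, muscle or vessels in the scrapings in these values was not tested.

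**Figure D4:**
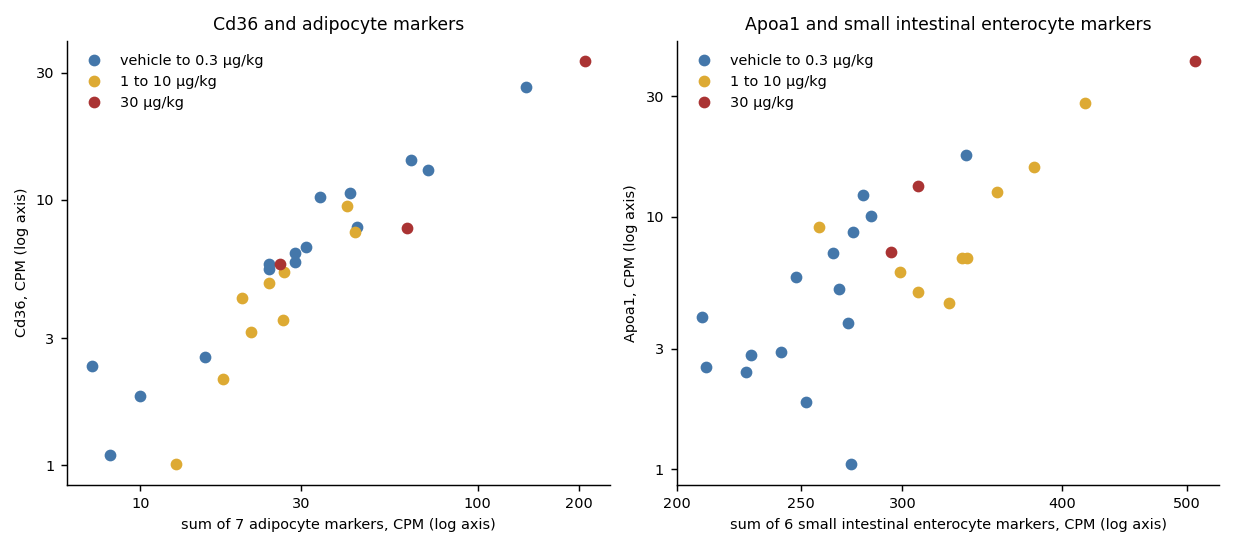
Left, Cd36 against the sum of 7 adipocyte markers; right, Apoa1 against the sum of 6 small intestinal enterocyte markers, all in CPM on log axes, with 1 point per mouse coloured by dose range. Cd36 rises with the adipocyte sum in mice of all dose ranges, and the mouse with the highest Apoa1 (41.3 CPM) has the highest enterocyte sum (507 CPM).

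From mouse to mouse, Apoa1, Apoa4, Apoc3, Mttp and Fabp1 went up and down together. These 5 were set apart after their values were seen, so their correlations are given as a description. Over the 10 pairs and 27 mice Pearson's r of log2 CPM ran from 0.65 to 0.91 (median 0.78). With group means removed it ran from 0.52 to 0.89, and within the index sets from 0.37 to 0.87 and from 0.77 to 0.97. The highest pair was Apoa1 with Mttp. The mice that carried the pattern were found at several doses. Mouse 2 at 30 μg/kg had the highest level of all 27 mice for each of the 5 genes. Mouse 3 at 10 μg/kg and mouse 2 at 0.1 μg/kg were also high, with 28.2 and 17.5 CPM of Apoa1, 14.9 and 20.5 CPM of Apoa4 and 18.4 and 9.79 CPM of Mttp. All 3 mice at 0.3 μg/kg were low, at 1.05 to 2.44 CPM of Apoa1.

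**Figure D5:**
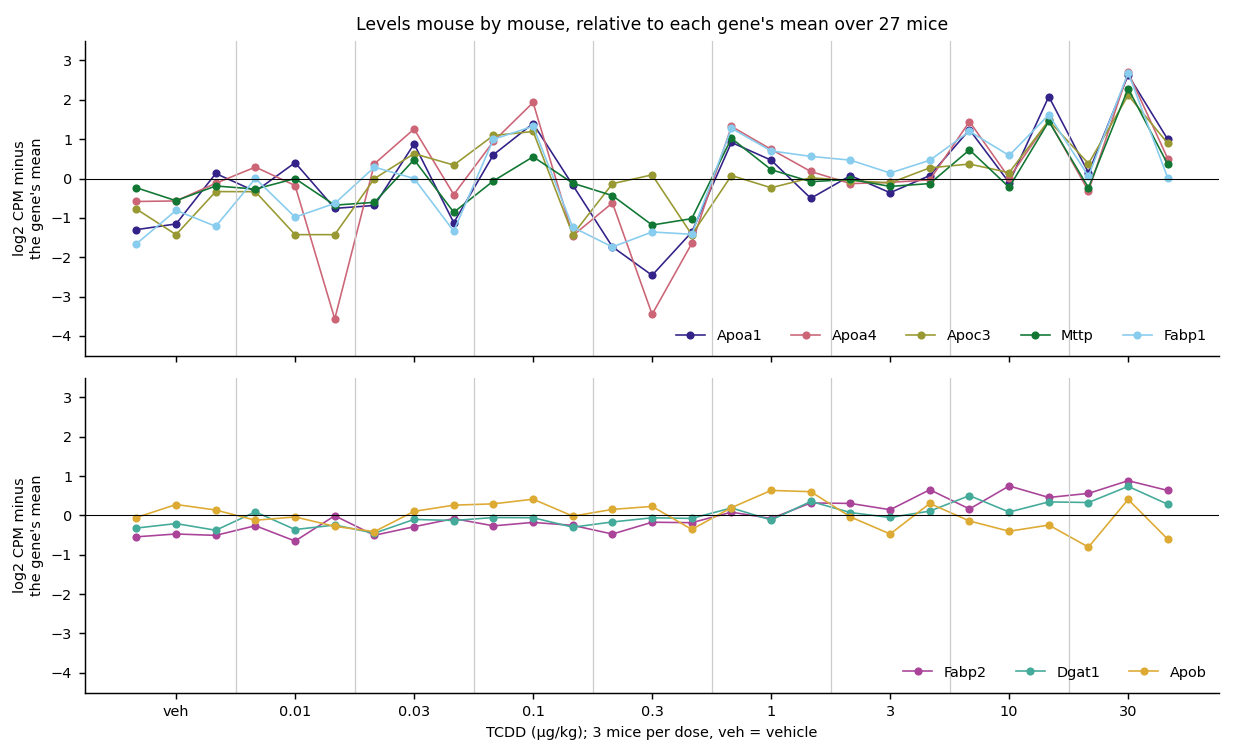
Log2 CPM minus each gene's mean over all mice (vertical) for the 27 mice in groups of 3 by dose (horizontal); the lines only join the points of 1 gene, and mice of a group have no order. In the upper panel Apoa1, Apoa4, Apoc3, Mttp and Fabp1 peak in the same mice, up to mouse 2 at 30 μg/kg, and in the lower panel Fabp2 and Dgat1 are higher at the top doses than in vehicle while Apob is not.

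Genes outside the set moved with these 5. By the likeness of log2 CPM over the 27 mice, the closest to Apoa1 were Anpep (r = 0.94), Mttp and the amino acid transporter Slc6a19 (r = 0.88). Lct, the milk sugar enzyme lactase, was closest to Apoa4 (r = 0.84) and to Fabp1 (r = 0.90), and the peptidase Mme was close to Mttp (r = 0.87). Closest to Apoc3 were Fbxo38 (r = 0.75), Mme (r = 0.71) and Apoa4 (r = 0.70), and Gm10305 was also close to Fabp1 (r = 0.81). Lct, Anpep and Mme stood on the list of 6 small intestinal enterocyte markers, whose summed level was 211 to 265 CPM in vehicle, 309 to 337 CPM at 3 μg/kg, 299 to 417 CPM at 10 μg/kg and 294 to 507 CPM at 30 μg/kg. These groups lay above vehicle, as did that at 0.01 μg/kg (268 to 275 CPM), and 507 CPM belonged to mouse 2 at 30 μg/kg. Most of the sum was Slc5a1, a glucose transporter, with a mean of 158 CPM in vehicle, 227 CPM at 3 μg/kg and 204 CPM at 30 μg/kg. Lct had 0.983, 1.16 and 0.392 CPM in vehicle and 2.15, 18.7 and 2.24 CPM at 30 μg/kg, a log2 fold change of 3.17 (SE 0.93, edgeR adjusted p = 0.0307). Anpep (log2 fold change 1.81, adjusted p = 0.0427) and Alpi (1.10, adjusted p = 0.0238) were also called at 30 μg/kg, and Sis (0.08, adjusted p = 0.951), Slc5a1 (0.37, adjusted p = 0.0178, below the fold threshold) and Mme were not. Of all genes 6.16% were called at that dose and 2.95% were higher. Without mouse 2 at 30 μg/kg Lct was at 1.38, Anpep at 1.34 and Alpi at 0.48, and none of these was called (adjusted p = 0.394, 0.192 and 0.284). The calls of Lct and Alpi were also lost without any 1 of the vehicle mice, and that of Anpep without vehicle mouse 1 or 2 or mouse 3 at 30 μg/kg. Apoa1 and this sum had r = 0.77 and rho = 0.73 over the mice (adjusted permutation p = 0.000114 and 0.000253), 0.65 and 0.79 within the index sets, and 0.63 without the 2 mice farthest from the median sum; the relation was examined after the values were seen. The part of small intestinal cells or of enterocyte state in this was not tested. Of 5 hepatocyte markers Fgb was at 0 in every mouse and Alb at no more than 1.22 CPM, while Ttr ran from 1.43 to 15.2 CPM. The summed level of the 5 was 2.74 to 7.66 CPM in vehicle and 7.85 to 16.9 CPM at 30 μg/kg, and Ttr had a called slope (0.17 per dose step, edgeR adjusted p = 0.0164) but was not called at 30 μg/kg (adjusted p = 0.109). The part of liver-type transcripts in these values was not tested.

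Fabp2 and Dgat1 were also compared. Over the 27 mice they had r = 0.82 and rho = 0.83 (permutation p = 1e-05 for each, the smallest possible here), 0.70 and 0.51 within the index sets, and 0.81 without the 2 farthest mice. With group means removed r was 0.35, against 0.32 to 0.54 for Dgat1 with the 5 genes above, and in the second index set these 5 had r of 0.68 to 0.78 with Dgat1. The genes most like Fabp2 were Fam102a (r = 0.92), the clock gene Per2 (r = 0.91) and Naa60 (r = 0.90), and those most like Dgat1 were Adipor2 (r = 0.92), Cndp2 (r = 0.90) and Neurl3 (r = 0.89).

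Counted over all comparisons with vehicle, 9 of 80 gene and dose combinations passed the test (adjusted p under 0.05 over all genes and a fold of at least 1.5), and all 9 were higher. From 0.01 to 0.3 μg/kg 0 of 40 passed (smallest adjusted p = 0.728, 4 at an unadjusted p under 0.05), and no gene of the whole table did. At 1 μg/kg 0 of the 10 genes passed, against 0.2% of all genes. At 3 μg/kg 1 passed (0.697% of all genes), at 10 μg/kg 2 (1.78%) and at 30 μg/kg 6 (6.16%, with 2.95% higher). The median log2 fold change of the 10 genes at 30 μg/kg was 1.64 (0.86 without mouse 2 of that dose), and that of all 16496 genes tested was -0.0022. It includes Apoc3 and Fabp1. At 30 μg/kg 5 genes, Apoc3 and Fabp1 among them, had all 3 mice above all vehicle mice and 0 had all below, where 14.5% of all genes were all above and 15.2% all below. The doses within the second index set were also compared with each other. In 30 such comparisons (30 against 3, 10 against 3 and 30 against 10 μg/kg) 0 passed (smallest adjusted p = 0.21, 7 at an unadjusted p under 0.05), where 0.461%, 0.0485% and 0% of all genes did. A slope over the 9 dose ranks was called at an adjusted p under 0.05 for the same 6 genes as at 30 μg/kg, where 23.4% of all genes had one. It was 0.15 log2 units per dose step for Fabp2 (SE 0.01, edgeR adjusted p = 1.69e-07), 0.09 for Dgat1 (SE 0.01, adjusted p = 1.23e-05) and 0.18 to 0.33 for Mttp, Apoa1, Apoc3 and Fabp1. With the index set as a term 0 of these slopes were called (Fabp2 at edgeR adjusted p = 0.0972 and Dgat1 at 0.118), where 0.0667% of all genes had one, and with the clock score 1, that of Apoc3 (0.691% of all genes). Without mouse 2 at 30 μg/kg the slopes of Apoa1, Mttp and Apoc3 were not called.

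Other genes of lipid handling were taken from a list. Of 37 listed genes of uptake, triacylglycerol synthesis, assembly and export, and lipid droplets, 34 were tested (Apoa2, Apoa5 and Apoc1 were not), 4 were called higher at 30 μg/kg and 0 lower, where 2.95% of all genes were higher. Their median log2 fold change was 0.33, and 28 were positive. Dgat2, which makes the same final step as Dgat1, was higher by 1.01 (SE 0.26, edgeR adjusted p = 0.0162), and the lipid droplet and lipoprotein protein gene Cideb by 0.77 (SE 0.14, adjusted p = 0.00155). Apoe, an apolipoprotein of remnant clearance, was higher by 0.91 (adjusted p = 0.0459), and Pnpla2, the first triacylglycerol lipase of fat droplets, by 0.59 (adjusted p = 0.00175). Of these 4 only Cideb kept its call without each vehicle mouse and each mouse at 30 μg/kg in turn. Without mouse 2 at 30 μg/kg Dgat2 was at 0.69 and Pnpla2 at 0.51, below the fold threshold, and without mouse 3 Apoe was at 0.56. Over the dose ranks 13 of the 34 had a rising and 2 a falling slope, where 23.4% of all genes had one in either direction. Rising slopes were found for Apoc2 (0.23 per step), the fatty acid activating enzyme Acsl3 (0.04) and the cholesterol transporter Npc1l1 (0.14), and falling ones for the sterol exporter Abcg5 (-0.14) and Mogat2 (-0.12), which makes diacylglycerol from monoacylglycerol. Of 9 listed transcription factors 2 were called at 30 μg/kg, where 6.16% of all genes were called. Creb3l3, a membrane-bound factor known to act on apolipoprotein genes, was higher by 1.77 (SE 0.36, adjusted p = 0.00293), with 7.38 ± 0.725 CPM in vehicle and 25.2 ± 14.9 CPM at 30 μg/kg (SD, n = 3). Mouse 2 held 42.3 CPM of it, and without that mouse it was higher by 1.17 (edgeR adjusted p = 0.0316). Hnf4g was lower, with a log2 fold change of -1.10 (SE 0.17, adjusted p = 0.000296), from 46.4 ± 2.33 to 21.6 ± 1.45 CPM. Hnf4a, the best known factor of the CAAAGTNCA site, was at 958 ± 89.5 CPM in vehicle and 1126 ± 149 CPM at 30 μg/kg and was not called (adjusted p = 0.194). Of 8 PPAR targets 7 were tested and 0 were called, where 6.16% of all genes were called.

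Place along the colon was followed by a score from 25 Hox genes, the first principal component of their log2 CPM (69.5% of their variance). Over the 27 mice its r with the 10 genes ran from -0.38 (Apob) to 0.15 (Mttp), and none had an adjusted permutation p under 0.05 by Pearson's r. By rank Cd36 did (rho = -0.47, adjusted p = 0.0388, with r = -0.56 and -0.03 within the index sets). With the Hox score as a covariate 6 genes were called at 30 μg/kg, the same ones.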

How the data were processed

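RNA-Seq libraries of colonic epithelium from 27 mice were made with a NuGen Ovation mouse kit. The deposited files hold raw read counts per Ensembl gene, 1 file per mouse. Per the submitters' processing notes FastQC 0.11.3, Trimmomatic 0.33, TopHat2 2.1.0, SAMtools 1.2.0, HTSeq 0.6.1 and DESeq were used with build GRCm38; the strand setting and annotation are not given in the sources used here. Rows for reads with no feature (29.1 to 33.3%) or no unique position (30.7 to 37.1%) were left out. Reads shared between overlapping genes or near-identical copies are not counted to any, which lowers such genes.

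Groups followed the dose label, and replicate numbers were given in accession order. Symbols and exon lengths came from a GENCODE M21 annotation of GRCm38 and promoters from RefSeq. The 10 genes, the lists and the tests were chosen with earlier results of these data known. Counts were tested with edgeR 4.0.16 in R 4.3.3 (filterByExpr with a minimum count of 10, TMM, quasi-likelihood test, all 9 groups in 1 fit, Benjamini-Hochberg adjustment over 16496 genes); calls needed an adjusted p under 0.05 with a change of 1.5 times or more. Log2 CPM used a prior count of 2. Single genes were also compared by exact two-sided permutation and mice by permuted correlations in scipy 1.17.1. Named genes were the 10, genes among the 3 most like each over the mice (mean of at least 1 CPM), and listed genes past the threshold. Others were named after their values were seen. On simulated counts for 30 μg/kg against vehicle (16278 genes, 200 changed) the test recovered 85% of 4-fold and 62% of 2-fold changes and called 9 other genes. Alternatives were RLE factors, no filter, limma voom (limma 3.58.1), DESeq2 1.42.0, fewer samples, and the index set, Hox score or clock score as a term. The labels do not say whether mice of a group shared a cage or litter. Libraries of a group differed by more than sampling noise (27 pairs, with chi-square divided by its degrees of freedom never under 5.45).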

Additional observations from a re-analysis of the deposited data

How the results depend on the processing

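At 30 μg/kg 6 of the 10 genes were called under RLE size factors, DESeq2, the Hox score and an adjusted p alone (6.14%, 6.81%, 7.70% and 11% of all genes tested), and 8 without a low-count filter (3.82%). The count was 2 with limma voom (Fabp2 and Dgat1, 5.10% of all genes), 2 with only the groups compared (the same pair, 4.43%, with Apoc3 and Fabp1 no longer tested), 1 with the index set as a term (Fabp2, 4.43%) and 1 with the clock score (Apoa4, at a log2 fold change of 6.29, 2.81%). With the index set the log2 fold changes that lost their call were 3.17 for Apoa1 (SE 1.10), 2.52 for Mttp (SE 0.86), 4.12 for Fabp1 (SE 1.32), 3.41 for Apoc3 (SE 1.85) and 0.82 for Dgat1 (SE 0.26). Leaving out mouse 3 at 10 μg/kg and mouse 2 at 30 μg/kg was a choice made after the data were seen. It left 3 (Fabp2 and Dgat1 higher, Apob lower at -0.82, where 4.13% of all genes were called), with Apoc3 no longer tested. Leaving out 1 mouse at a time gave 2 to 6 (3.51% to 6.45% of all genes): 2 without vehicle replicate 1, and 3 without vehicle replicate 2, vehicle replicate 3 or replicate 2 at 30 μg/kg. Fabp2 and Dgat1 were called in each of these. The same step for genes outside the 10 was added after the data were seen.

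At 10 μg/kg 4 were called without a filter (1.18% of all genes) and 0 with the index set (0.346%) or clock score (0.133%). With 1 mouse left out 1 to 2 were called (0.969% to 1.35%), and 1 without replicate 1 or 3 of vehicle or of 10 μg/kg. At 3 μg/kg 0 were called with the index set (0.0121%) or clock score (0.0485%) and 1 with any mouse left out (0.285% to 0.576%). At 1 μg/kg 1 was called without a filter (0.194%) and by DESeq2 (0.443%), and 0 with any mouse left out (0.0178% to 0.143%). Slopes were called for 0 genes with the index set (0.0667% of all genes) and for 1 with the clock score (0.691%). Over vehicle to 3 μg/kg the count was 2 (2.57%). With 1 mouse left out it was 3 to 7 (18.9% to 26.5%), and 3 without replicate 2 at 30 μg/kg (18.9%). For 30 against 3 μg/kg the count was 0 with any mouse left out (0.196% to 0.845%). Of the 34 other lipid genes 9 were called at 30 μg/kg by adjusted p alone (11% of all genes) and 7 with the Hox score (7.70%). The count was 2 with limma voom (5.10%), the index set (4.43%) or both mice left out (4.13%). With 1 mouse left out it was 1 to 7 (3.51% to 6.45%). It was 1 without vehicle replicate 3 (3.94%), 2 without replicate 2 at 30 μg/kg (4.32%) and 7 without replicate 1 at 30 μg/kg (6.45%).

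Of 634 values of single genes 562 kept their direction and side of the threshold, 53 lost the call, 8 gained it and 11 changed sign. None of those that changed sign was called. For 30 against 3 μg/kg these were Fabp6 with limma voom (-0.0421) and without replicate 1 at 30 μg/kg (-0.441), Apob without replicate 3 at 3 μg/kg (0.00651) or replicate 1 at 30 μg/kg (0.0222), and Fabp1 without replicate 2 at 30 μg/kg (-0.396) or both mice (-0.389). With 1 mouse left out Fabp6 ran from -0.44 to 0.60, Apob from -0.67 to 0.02 and Fabp1 from -0.40 to 1.69 there. For the slope they were Apob over vehicle to 3 μg/kg (0.0321) and Cd36 over log10 dose (-0.0399), over vehicle to 3 μg/kg (-0.225), without vehicle replicate 1 (-0.000567) and without replicate 3 at 30 μg/kg (-0.107), with Cd36 running from -0.107 to 0.0807. The causes were not tested. No paired analysis was possible because no mouse belonged to more than 1 group and the numbers 1 to 3 follow accession order. With 3 mice a group and few reads of Apoc3 and Fabp1, changes at lower doses may be below what this depth can show.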
